A study of Mus musculus with 6 samples.

Results

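The miR-17-92 and miR-106b-25 clusters are a pair of related miRNA gene clusters, and 10 of their mature miRNAs were examined in white adipose tissue (WAT). These are 10 of the 707 mature miRNAs in the count table, and they were picked out by their accessions, with no threshold on a measured value. All mice were male and ApoE-deficient, so that they lack an apolipoprotein needed to clear cholesterol-rich particles from blood. The CIH (chronic intermittent hypoxia) group modelled obstructive sleep apnea with 8 weeks of cycles between 21% and about 6% oxygen, in which the fall and the return each took 60 s. The control group was not given CIH, and mice with intact ApoE were not part of the design. Each group had 3 libraries, and p-values measure the spread between these libraries. The age of the mice is not given in the sources used here.

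A miRNA is cut from a hairpin in a longer transcript, and the mature strand then guides a protein complex to mRNAs that pair with its seed, which is bases 2 to 8. The miR-17-92 cluster, also called Oncomir-1, is known as a target of MYC and E2F that promotes cell proliferation and survival, and it represses BIM and E2F1. In fat it is known for promoting the clonal expansion of preadipocytes by repressing the retinoblastoma relative Rb2/p130. The miR-106b-25 cluster is made from the transcript of Mcm7, a gene of DNA replication licensing.

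In the test between the groups, 0 of the 10 miRNAs were called, against 2.53% of all miRNAs tested. The group means differed by less than the SD of the control libraries for 9 of the 10. The share of all miRNAs tested that met this was not computed, so that count has no background to be compared with. The miRNA outside these 9 was the passenger strand miR-18a-3p, which was higher in every CIH library than in every control library, at 1 to 6 counts per library. Groups that did not overlap were found for 8.06% of all miRNAs tested, and a count of 1 in 10 lies near that share. The study had picked miR-18a-3p for RT-qPCR after sequencing these libraries, so its place among the 10 is not independent of them. Its group means were 1.55 ± 0.875 (SD, n = 3) in control and 5.21 ± 0.343 (SD, n = 3) in CIH, in CPM (counts scaled to a common library size) after TMM normalization, which adjusts for differences in composition. miR-106b-5p had the lowest CIH level relative to control, with means of 676 ± 495 (SD, n = 3) and 228 ± 118 (SD, n = 3) TMM-normalized CPM. Its control 3 library lay among the CIH libraries. In a tissue sample, fewer cells of a type and less RNA per cell cannot be told apart.

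The mature sequences are shown first because the 10 miRNAs fall into 5 seeds, and because some of them differ at few bases. They are from RefSeq on GRCm38.p6, in which all 10 names were found, and capitals mark the seed.
miR-17-5p: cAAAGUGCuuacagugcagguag
miR-20a-5p: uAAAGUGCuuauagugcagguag
miR-106b-5p: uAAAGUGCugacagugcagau
miR-93-5p: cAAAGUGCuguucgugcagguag
miR-18a-5p: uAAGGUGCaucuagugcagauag
miR-18a-3p: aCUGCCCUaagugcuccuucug
miR-19a-3p: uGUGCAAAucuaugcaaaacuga
miR-19b-3p: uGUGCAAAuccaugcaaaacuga
miR-92a-3p: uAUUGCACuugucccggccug
miR-25-3p: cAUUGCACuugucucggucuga

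The miR-17 seed AAAGUGC is carried by 4 of these miRNAs, from both clusters, and by 7 of the 1679 mature miRNAs of the RefSeq table. The miR-18a-5p seed, AAGGUGC, differs from it at 1 base and is held by 2 miRNAs of the table. The miR-19 seed GUGCAAA is held by miR-19a-3p and miR-19b-3p alone, and the miR-92 seed AUUGCAC by 6 miRNAs, among them miR-92a-3p and miR-25-3p. With positions counted from 1 at the 5′ end, miR-19a-3p and miR-19b-3p differ only at U11C, and miR-17-5p and miR-20a-5p at C1U and C12U. Another related cluster, on chromosome X, makes miR-106a-5p, printed here because it differs from miR-17-5p only at U10A.
miR-106a-5p: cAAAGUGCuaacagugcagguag
How reads that fit several miRNAs were counted is not given in the sources used here. None of the 10 miRNAs had counts identical to another row of the table.

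The 6 hairpins of miR-17-92 lie within 836 bases, at chr14:115043671-115044506 on the plus strand of GRCm38, in an exon of Mir17hg, a noncoding gene. The 3 hairpins of miR-106b-25 lie within 498 bases, at chr5:138165321-138165818 on the minus strand, in Mcm7. Mir106b lies in an intron of that gene, and Mir93 and Mir25 lie in introns that an annotated retained-intron transcript includes. The mature miR-19b-3p and miR-92a-3p are also made from Mir19b-2 and Mir92-2 on chromosome X (chrX:52741838-52742066, minus strand, in no annotated host gene), so their counts do not tell these loci apart. Accessions are MIMAT0000649 for miR-17-5p, MIMAT0000528 for miR-18a-5p, MIMAT0004626 for miR-18a-3p, MIMAT0000651 for miR-19a-3p, MIMAT0000529 for miR-20a-5p, MIMAT0000513 for miR-19b-3p and MIMAT0000539 for miR-92a-3p. Those of the smaller cluster are MIMAT0000386 for miR-106b-5p, MIMAT0000540 for miR-93-5p and MIMAT0000652 for miR-25-3p.

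**Figure D1:**
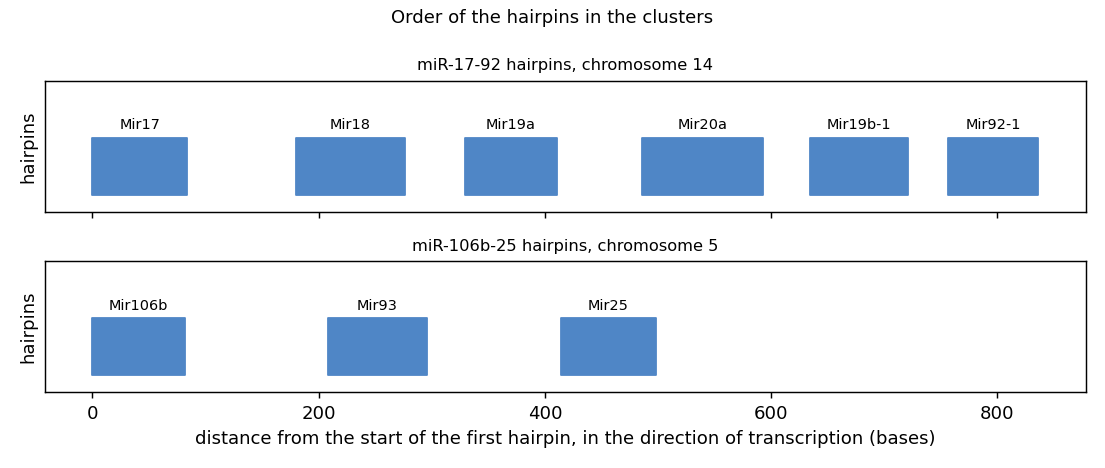
Order of the hairpins (blue boxes, to scale) along both clusters, with the distance in bases from the start of the first hairpin in the direction of transcription on the x axis. The 6 hairpins of miR-17-92 span 836 bases and the 3 of miR-106b-25 span 498 bases.

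The libraries held between 636963 and 4783768 counts, and TMM factors lay between 0.575 and 1.45. Control 1 and control 2 stood apart from the other 4 libraries. They held at least 1 count for 487 and 552 miRNAs, against 631 to 649 in control 3 and the CIH libraries, although control 2 had the most counts. Fold changes without both of these libraries are therefore given as well. The tissue label was not checked against marker miRNAs, because the files pair no accession with a name beyond the 10 miRNAs examined, and this includes control 1 and control 2. Differences between the groups rest on the labels of those libraries as given.

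All 10 miRNAs passed the filter of at least 10 counts summed over the libraries. A miRNA was called where edgeR's quasi-likelihood test gave p below 0.05 before adjustment and the change was 1.5-fold or more. This held for 0 of the 10 miRNAs, against 2.53% (16) of all 633 tested. After Benjamini-Hochberg adjustment, 0 of the 633 were called by edgeR, by DESeq2 or by limma voom, and 16, 26 and 75 had an unadjusted p-value under 0.05. Of the 10 miRNAs, 5 had a log2 fold change above 0 and 5 below 0. Their median log2 fold change was 0.02, beside 0.07 over all miRNAs tested, and their median absolute log2 fold change was 0.21, beside 0.91. Over the 204 miRNAs that averaged 100 or more TMM-normalized CPM, the median absolute value was 0.80, and over the 9 of the 10 in that range it was 0.16.

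**Figure D2:**
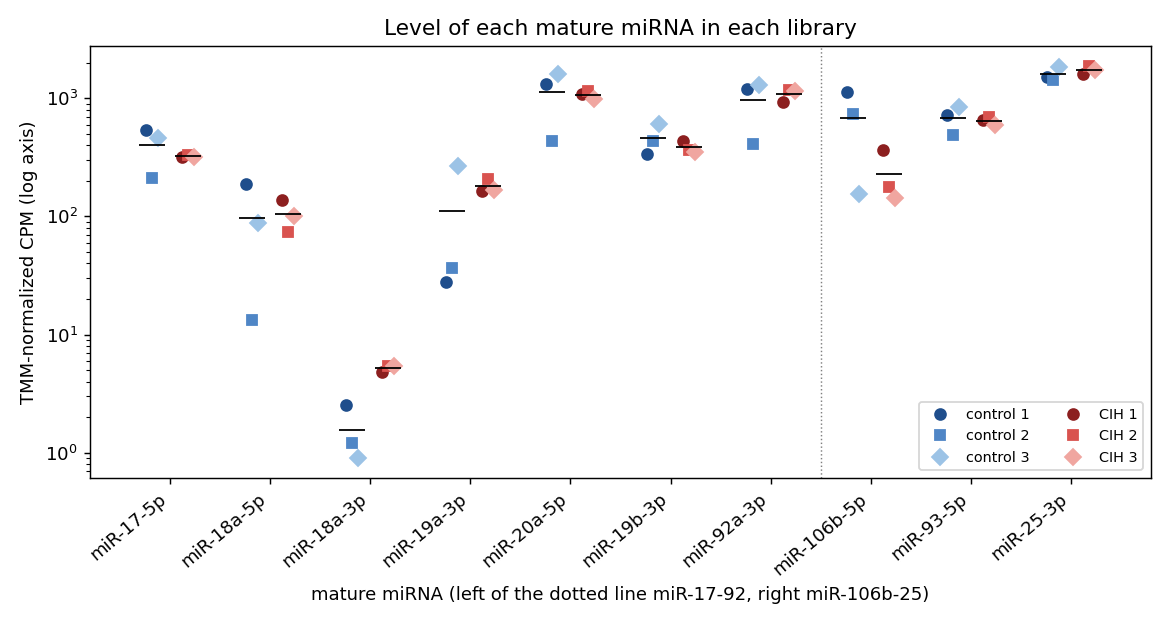
TMM-normalized CPM (log axis) of each mature miRNA in the 6 libraries, with one point per library and a black line at each group mean. The CIH points lie close together for most miRNAs, the control points spread widely, and only for miR-18a-3p do the groups not overlap.

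The 4 miRNAs with the miR-17 seed repress the same kind of targets, among them the cell-cycle inhibitor p21. miR-20a-5p was the most abundant of them in every library but control 2. It had 1319, 432 and 1618 TMM-normalized CPM in control 1, 2 and 3 and 1083, 1143 and 979.5 in CIH 1, 2 and 3. The CIH libraries lay inside the range of the controls, where control 2 was the lowest. miR-17-5p had 537, 211 and 459 TMM-normalized CPM in the controls and 316, 333 and 321 in the CIH libraries. Control 2 was again the lowest, and the CIH libraries lay within a 1.05-fold range. miR-93-5p, which is made from the Mcm7 transcript, had 725 TMM-normalized CPM in control 1, 486 in control 2 and 842 in control 3, against 659, 689 and 599 in CIH 1, 2 and 3. Here too the groups overlapped.

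miR-106b-5p, the first miRNA of the Mcm7 transcript, did not follow its neighbours. It had 896, 3039 and 172 counts in control 1, 2 and 3, which are 1140.4, 733 and 155 TMM-normalized CPM. In CIH 1, 2 and 3 it had 453, 164 and 133 counts, or 364, 177 and 144 TMM-normalized CPM. Control 1 and control 2 were high, and control 3 lay between CIH 2 and CIH 3. miR-106b-5p had a log2 fold change of -1.57 with a standard error of 0.87, and edgeR gave an adjusted p of 0.882. The 95% interval ran from -3.65 to 0.52. Without control 3 it was -2.03 with an unadjusted p of 0.0118 and an adjusted p of 0.0586 from the same test, in a fit that called 37.6% of all miRNAs tested. Without control 1 alone it was -0.98 and without control 2 alone -1.46. Without both the sign turned, with a log2 fold change of 0.65 (unadjusted p = 0.347 from the same test). In that fit the lone control library is assumed to vary like the CIH libraries.

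Ratios within a library do not depend on the scaling between libraries. miR-106b-5p and miR-93-5p are cut from hairpins of one transcript, and the ratio of miR-106b-5p to miR-93-5p counts was 1.57, 1.51 and 0.184 in control 1, 2 and 3. It was 0.552, 0.257 and 0.241 in CIH 1, 2 and 3. The ratio thus lay above 1 in control 1 and control 2 and well below 1 in the other 4 libraries, with an 8.54-fold range over all 6. In contrast, the ratio of miR-25-3p to miR-93-5p, from the same transcript, ranged only from 2.09 to 2.95, a 1.41-fold range. miR-106b-5p made up 33.7%, 27.6% and 5.47% of the counts of its cluster in the controls. In the CIH libraries it made up 13.8%, 6.42% and 5.82%. The lower bound in control 2 was 26.8%, above the whole interval of CIH 1 (95% exact Clopper-Pearson intervals, which cover counting error only).

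**Figure D3:**
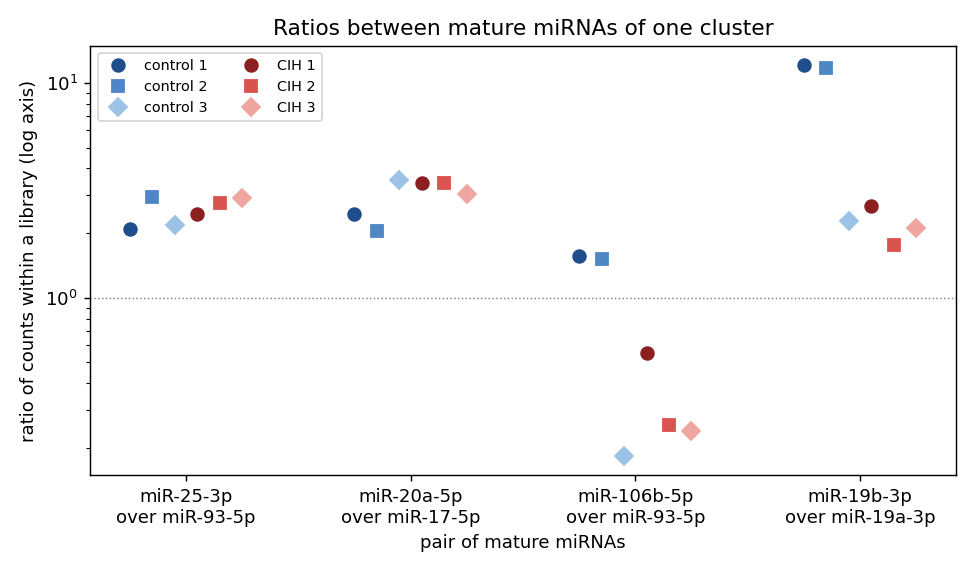
Ratios of counts between miRNAs of one cluster (log axis), with one point per library. The miR-25-3p to miR-93-5p ratio lies between 2.09 and 2.95 in all 6 libraries, while miR-106b-5p over miR-93-5p and miR-19b-3p over miR-19a-3p set control 1 and control 2 apart from the other 4.

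miR-18a is the one hairpin of these clusters for which both arms were examined. The hairpin Mir18 (chr14:115043851-115043946, plus strand, GRCm38.p6) is printed with miR-18a-5p and then miR-18a-3p in capitals.
Mir18: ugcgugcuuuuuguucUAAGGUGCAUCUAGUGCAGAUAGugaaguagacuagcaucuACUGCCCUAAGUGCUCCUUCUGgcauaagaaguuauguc
The study also measured miR-18a-3p by RT-qPCR and reported it as upregulated in CIH, the direction it had found by sequencing. The capitals of that primer mark the 16 bases that match bases 1 to 16 of miR-18a-3p, which were found in 1 mature sequence of the RefSeq table.
miR-18a-3p primer: gggaACTGCCCTAAGTGCTC

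miR-18a-3p, the less abundant arm, had 2, 5 and 1 counts in control 1, 2 and 3 and 6, 5 and 5 counts in CIH 1, 2 and 3. These are 2.55, 1.21 and 0.901 TMM-normalized CPM in the controls and 4.82, 5.40 and 5.42 in the CIH libraries. The groups did not overlap, also in CPM of library totals, where this was the case for 6.79% of all miRNAs tested. The log2 fold change of miR-18a-3p was 1.77 with a standard error of 0.79 and a 95% interval from -0.13 to 3.67. In edgeR its unadjusted p was 0.0632 and its adjusted p was 0.882.

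Counting error was large for this miRNA. A single control library with 1 count gave 1.26 CPM of the library total with a 95% exact Clopper-Pearson interval from 0.0319 to 7.03 CPM, and CIH 3 with 5 counts gave 7.85 CPM with an interval from 2.55 to 18.3. The intervals of a control and a CIH library overlapped in 8 of 9 pairs. Pooled over libraries, 8 counts in control and 16 in CIH gave a ratio of 3.91 after TMM scaling, with a counting interval from 1.58 to 10.5 that leaves out the spread between libraries. Control 2 alone held 5 of the 8 control counts. With library totals in edgeR, the log2 fold change of miR-18a-3p was 2.23 and its unadjusted p was 0.0416, in a fit that called 2.05% of all miRNAs tested. Without control 1 these were 2.19 and 0.0358, in a fit that called 2.69%. With the 5 most abundant miRNAs taken out of the totals, miR-18a-3p was again called, beside 2.53% of all. Without control 1 and control 2 the log2 fold change was 2.47, with control 3 and its 1 count as the lone control library. It was smaller with upper-quartile factors, at 1.13 with an unadjusted p of 0.246, and with the replicate number as a block the unadjusted p of miR-18a-3p was 0.189.

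miR-18a-5p, the guide arm, showed no such separation. It had 188, 13.3 and 87.4 TMM-normalized CPM in control 1, 2 and 3 and 138, 73.5 and 100.9 in CIH 1, 2 and 3. Control 2 was far below the other 5 libraries, and the control values spanned a 14.2-fold range. miR-18a-3p made up 1.33%, 8.33% and 1.02% of the counts of both arms in the controls and 3.37%, 6.85% and 5.10% in the CIH libraries. The high share in control 2 came with the low miR-18a-5p level there. The log2 ratio of miR-18a-3p to miR-18a-5p counts, with 0.5 added to both, was -5.08 ± 1.52 (SD, n = 3) in control and -4.15 ± 0.55 (SD, n = 3) in CIH. The difference of 0.93 gave p = 0.4 in a two-sided exact permutation test, where 3 against 3 cannot give less than 0.1. The size of the difference rested on single control libraries. In the same exact test it was 0.53 without control 1 (p = 0.8), 1.81 without control 2 (p = 0.2) and 0.46 without control 3 (p = 0.8). With 2 libraries against 3 that test cannot give less than 0.2, so the p without control 2 is the smallest possible.

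**Figure D4:**
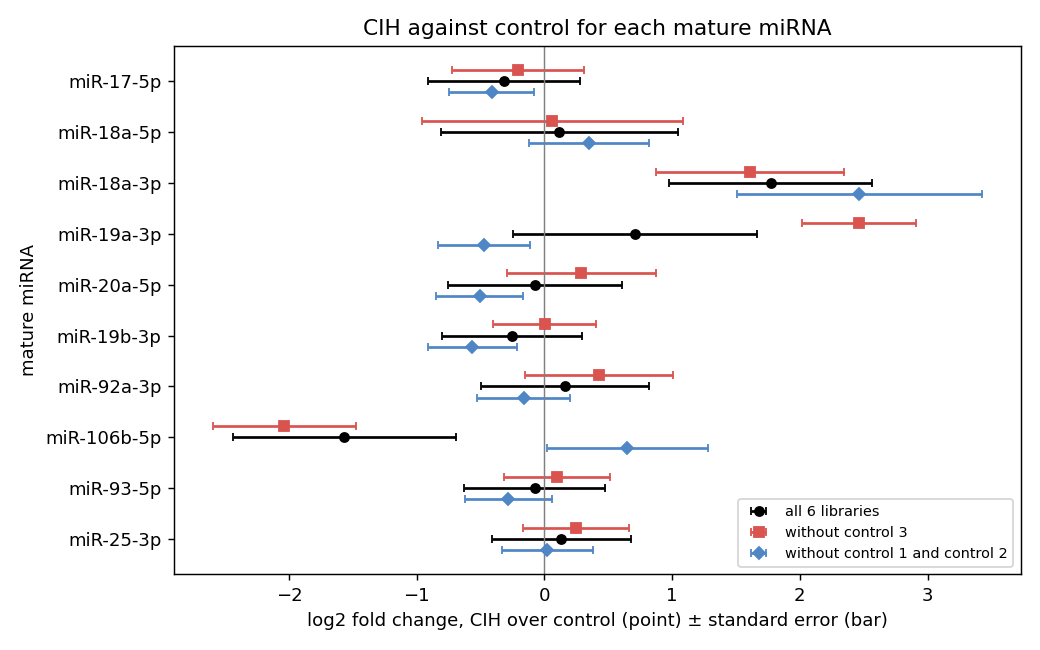
Log2 fold change of CIH over control for each mature miRNA (points) with standard errors (bars), from all 6 libraries, without control 3, and without control 1 and control 2. miR-18a-3p stays above 1 in all 3 fits. Between the last 2 the sign changes for miR-19a-3p, miR-106b-5p, miR-20a-5p, miR-19b-3p, miR-92a-3p and miR-93-5p.

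miR-19a-3p and miR-19b-3p, which are known as the oncogenic members of miR-17-92, share the seed and differ at 1 base. miR-19a-3p had 22, 152 and 295 counts in control 1, 2 and 3 and 205, 193 and 153 in CIH 1, 2 and 3. This gave 28.0, 36.7 and 266 TMM-normalized CPM in the controls and 165, 209 and 166 in the CIH libraries. Control 1 and control 2 were low, and control 3 was the highest of all 6. miR-19a-3p had a log2 fold change of 0.71 with a standard error of 0.95, and edgeR gave an adjusted p of 0.882. Without control 3 it was 2.47 with an adjusted p of 0.0153 from the same test, in a fit where 18.6% of all miRNAs had an adjusted p-value under 0.05. Without control 1 and control 2 the log2 fold change was -0.47, with control 3 as the lone control library.

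miR-19b-3p did not share this pattern. It had 337, 432 and 607.5 TMM-normalized CPM in control 1, 2 and 3 and 438, 368 and 349 in CIH 1, 2 and 3. The groups overlapped, and control 3 was again the highest. The ratio of miR-19b-3p to miR-19a-3p counts was 12.0 and 11.8 in control 1 and control 2 and 2.28 in control 3. In CIH 1, 2 and 3 it was 2.66, 1.77 and 2.10. Control 1 and control 2 thus had nearly equal ratios, over 4 times those of the other libraries. miR-19a-3p made up 0.774% and 2.38% of the miR-17-92 counts in control 1 and control 2, and between 5.34% and 6.31% in the other 4 libraries.

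miR-92a-3p and miR-25-3p carry the miR-92 seed. miR-92a-3p is known to repress integrin alpha5 in endothelial cells. It had 1207, 412 and 1298 TMM-normalized CPM in control 1, 2 and 3 and 939.6, 1173 and 1149 in CIH 1, 2 and 3. Control 2 was the lowest and the other 5 libraries lay together. miR-25-3p, the most abundant of the 10, had 1517, 1435 and 1837 TMM-normalized CPM in the controls and 1619, 1895 and 1737 in the CIH libraries. Its levels spanned a 1.32-fold range over all 6 libraries, the narrowest of the 10. The log2 fold change of miR-25-3p was 0.13 (standard error 0.55), and its 95% interval from -1.17 to 1.44 includes changes of over 2-fold either way.

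For the 7 miRNAs other than miR-18a-3p, miR-106b-5p and miR-19a-3p, the log2 fold changes lay between -0.32 for miR-17-5p and 0.16 for miR-92a-3p. Their standard errors lay between 0.55 and 0.93, and their edgeR adjusted p-values between 0.889 and 0.972. Without control 1 and control 2 the log2 fold changes of the 7 lay between -0.56 for miR-19b-3p and 0.35 for miR-18a-5p, and that of miR-92a-3p turned to -0.16. The sign depended on the scaling for 5 of the 7, while miR-17-5p and miR-19b-3p were below 0 under every scaling tried. The median over all miRNAs tested, 0.07 with TMM factors, was 0.33 with library totals and -0.52 with upper-quartile factors, on the log2 scale. Relative to the median of all miRNAs, miR-20a-5p was at -0.14 with TMM factors and at -0.20 with library totals, and miR-25-3p was at 0.06 and 0.07.

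Summed by seed, the miR-17 seed group had 2886 ± 944 (SD, n = 3) TMM-normalized CPM in control and 2269 ± 199 (SD, n = 3) in CIH. The miR-92 seed group had 2569 ± 658 and 2838 ± 258 (SD, n = 3), and the miR-19 seed group 569 ± 269 and 565 ± 45.1 (SD, n = 3). Within each of these 3 seed groups the difference of the means was smaller than the SD of the controls. The ligation of adapters favours some small RNAs over others, so levels of different miRNAs are compared here as read shares and not as molecules.

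Summed by cluster, miR-17-92 had 3619, 1539 and 4336 TMM-normalized CPM in control 1, 2 and 3 and 3084, 3305 and 3071 in CIH 1, 2 and 3. miR-106b-25 had 3383, 2654 and 2834 TMM-normalized CPM in the controls and 2641, 2762 and 2479.7 in the CIH libraries. The ratio of miR-106b-25 to miR-17-92 counts was 0.935, 1.73 and 0.654 in the controls and 0.857, 0.836 and 0.807 in the CIH libraries. It spanned a 2.64-fold range among the controls, with control 2 alone above 1, and a 1.06-fold range among the CIH libraries. All 10 miRNAs together took 0.403%, 0.363% and 1.003% of the counts of control 1, 2 and 3, and 0.452%, 0.761% and 0.803% of those of CIH 1, 2 and 3.

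**Figure D5:**
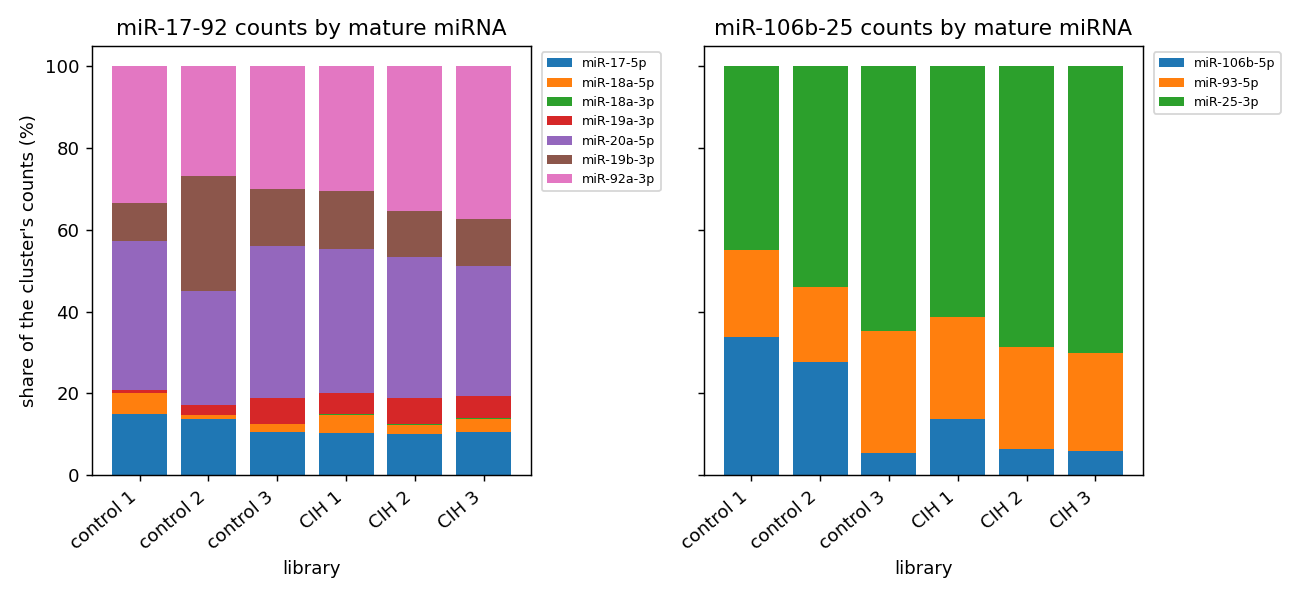
Share of each mature miRNA in the counts of its cluster (stacked bars, %), for the 6 libraries. In miR-106b-25 the miR-106b-5p share is 33.7% and 27.6% in control 1 and control 2 and 13.8% or less elsewhere, and in miR-17-92 the miR-19a-3p share is lowest in control 1 and control 2.

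The CIH libraries resembled each other more than the control libraries did, but control 3 lay near the CIH libraries. The chi-square per degree of freedom over miRNAs, lower for libraries more alike and higher with depth, was 120 to 368 between control 3 and the CIH libraries. Among the CIH libraries it was 202 to 525. Against control 1 and control 2, control 3 was at 1663 and 3668. The coefficient of variation was higher in control than in CIH for 10 of the 10 miRNAs. The same held for 81.8% of all miRNAs tested and for 89.2% of the 204 abundant miRNAs defined before. The median coefficient of variation over the 10 was 52.5% in control and 9.87% in CIH, beside 92.2% and 34.4% over all miRNAs tested. Over those 204 abundant miRNAs the median was 83.9% in control and 26.1% in CIH. Within CIH the widest range was that of miR-106b-5p, at 2.52-fold, and the narrowest was that of miR-17-5p. Within control the widest was that of miR-18a-5p.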

How the data were processed

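Small RNA libraries of WAT, 3 control and 3 CIH, were grouped by their labels. The labels do not say whether a library holds a single mouse or a pool. The deposited values are the authors' raw counts of reads on 707 mature miRNAs, not normalized. Trimming, aligner, database release and the counting of shared reads are not given in the sources used here. The 633 miRNAs with at least 10 counts summed were tested with edgeR 4.0.16 (TMM, quasi-likelihood, group only, Benjamini-Hochberg) in R 4.3.3, after a check on simulated data. No library repeated another (chi-square test over miRNAs).

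Standard errors were derived from edgeR's F statistic. Alternatives used DESeq2 1.42.0 and limma 3.58.1, other scalings and filters, the replicate number as a block and each library left out. Leaving out control 1 and control 2 together was added after seeing the data. The 10 miRNAs and the lists were chosen with earlier results of these data known, and all 10 are named. Lists of other arms, seed relatives and cell type markers were not used here, because their accessions are not paired with names. Positions come from RefSeq and GENCODE M21 on GRCm38. Python 3.11.15 with scipy 1.17.1 gave intervals and exact tests.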

Additional observations from a re-analysis of the deposited data

How the results depend on the processing

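Of the 10 miRNAs examined, 0 were called with the original settings and 1 (miR-18a-3p) with library totals. With totals without the 5 most abundant miRNAs, 1 (miR-18a-3p) was called. The fit without control 1 and control 2, chosen after seeing the data, has a lone control library, so its calls are not counted here. Leaving out each library in turn gave 0 to 2, with 2 (miR-19a-3p and miR-106b-5p) without control 3 and 1 without control 1 (miR-18a-3p). Over all miRNAs, 16 were called with the original settings, 26 with DESeq2, 39 with upper-quartile factors, 75 with limma voom and 3 with the replicate block. Leaving out each library in turn gave 1 to 238, and 0 to 118 at an adjusted p-value under 0.05, with 238 and 118 without control 3, 6 without CIH 1, 6 without CIH 2 and 1 without CIH 3. The cause was not tested. The labels do not say whether the replicate numbers pair the samples. Same-numbered libraries' deviations from the group means correlated at 0.35, -0.12 and 0.02 across miRNAs. The highest value between libraries of different number was 0.31, for control 3 with CIH 2. With 3 libraries per group these values cannot decide on a pairing. The replicate block called 0 of the 10. miR-18a-3p did not pass the filter of 10 counts per library.

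Signs turned for small values, and with control 1 and control 2 left out together also for the larger values of miR-106b-5p and miR-19a-3p. With upper-quartile factors the log2 fold change was -0.46 for miR-18a-5p, -0.36 for miR-92a-3p and -0.45 for miR-25-3p. For miR-20a-5p it was 0.13 with library totals, 0.14 without the 5 most abundant miRNAs, 0.0091 with the filter of 10 counts per library, 0.13 with limma voom and 0.11 with the replicate block. For miR-93-5p it was 0.16 with library totals, 0.16 without the 5 most abundant and 0.036 with the same filter. With control 1 and control 2 left out together it was -0.47 for miR-19a-3p, -0.16 for miR-92a-3p and 0.65 for miR-106b-5p. With each library left out in turn, it ran from -0.56 to 0.0018 for miR-17-5p, -0.34 to 1.13 for miR-18a-5p, -0.39 to 0.29 for miR-20a-5p, -0.39 to 0.0023 for miR-19b-3p, -0.13 to 0.43 for miR-92a-3p and -0.20 to 0.10 for miR-93-5p. miR-18a-3p kept a positive sign in every setting that tested it, from 1.13 with upper-quartile factors to 2.47 with control 1 and control 2 left out, and from 1.61 without control 3 to 2.19 without control 1 when single libraries were left out. Depth limits miR-18a-3p, where 3 counts, the floor for a count of 0, correspond to 0.627 to 4.71 CPM.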

Other observations

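The summed level of the 10 miRNAs was compared with the profile of each of the 395 miRNAs that averaged 10 or more TMM-normalized CPM, as the root-mean-square difference of centred log2 CPM over the 6 libraries. miR-93-5p, which is part of the sum, was the nearest, at 0.0641, followed by MIMAT0000521, at 0.180, which is not one of the 10 and is not paired with a name in the files. miR-17-5p was at 0.195 and miR-25-3p at 0.218, and between them lay miRNAs outside the 10, at 0.197 and 0.213. miR-92a-3p, miR-20a-5p and miR-19b-3p were at 0.350, 0.353 and 0.355, and the median of the 395 was 1.10. miR-106b-5p, at 1.23, and miR-19a-3p, at 1.18, lay farther from the sum than that median, although both belong to it, and miR-18a-5p was at 0.983.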
